A study of Mus musculus with 6 samples.

Results

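Prostaglandins are lipid signals made from arachidonic acid, and 10 genes of their synthesis, transport, breakdown and reception were described here: Pla2g4a, Ptgs2, Ptges, Ptges2, Ptges3, Hpgds, Slco2a1, Hpgd, Ptgr1 and Ptger4. They were taken by gene symbol from a table of 55487 genes, and all 10 were found and passed the filter on low counts, as did 14650 genes in all. The genes were picked with the genotype comparison of these libraries already known, starting from a higher value of Ptges, and the question was whether its partner enzymes moved with it. Their values are therefore given as a description, without a p-value. Differences are Nsd2Vil-KO against Nsd2f/f as a log2 fold change (log2FC) with its standard error (SE) from the edgeR fit.

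RNA-seq was performed on colon epithelial cells (IECs) of mice in which colitis was induced with dextran sodium sulphate (DSS), a polymer in the drinking water that injures the colonic epithelium. There were 3 libraries from Nsd2f/f mice, whose Nsd2 alleles carry loxP sites but are intact, and 3 from Nsd2Vil-KO mice, which carry the same alleles together with Cre under the Villin promoter and so lose Nsd2 in the intestinal epithelium, but not in other cells of the preparation. The labels of the control libraries read WT, and their genotype, Nsd2f/f, was taken from the text of the study. NSD2 is a histone methyltransferase that places H3K36me2. Both genotypes received DSS, so no library comes from an untreated colon. The methods of the study state a C57BL/6J background, littermate controls and, for colitis, an age of 2 months and 2% DSS for 5 days followed by water. The day on which cells were taken for RNA-seq is not given in the sources used here, nor is whether each library came from 1 mouse, so the errors below measure the spread between these libraries.

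Prostaglandin synthesis starts when a phospholipase A2 frees arachidonic acid from membranes. A cyclooxygenase turns it into prostaglandin H2, and a terminal synthase turns that into an end product such as prostaglandin E2 (PGE2) or prostaglandin D2. In the colon, PGE2 is known for supporting stem cell survival and wound repair after injury, and it signals through the EP receptors. The signal is ended by uptake into cells and oxidation in the cytosol, and the dehydrogenase of that step is known to be abundant in colonic epithelium.

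The libraries held between 15439123 and 20350539 reads counted on genes. Values are CPM, reads scaled to a common library size after TMM normalisation, and the limit that a count of 0 allows, 3 counts, was between 0.146 and 0.242 CPM. Nsd2Vil-KO replicate 2 and Nsd2f/f replicate 3 stood apart from the other 4 libraries, with Xist counts of 3684 and 4296 against at most 5. Nsd2f/f replicate 3 had 19.6% of its counts on mitochondrial genes against 5.51% to 9.13% elsewhere. The main differences below are therefore also given in the 4 remaining libraries, which were singled out with the values known. Nsd2 itself had 47.9, 51.2 and 24.6 CPM in Nsd2f/f replicates 1, 2 and 3 and 24.2, 10.4 and 20.8 CPM in Nsd2Vil-KO replicates 1, 2 and 3, a log2FC of −1.16 (SE 0.39, edgeR adjusted p = 0.992, exact permutation test, two-sided, p = 0.1, the smallest that 3 against 3 can give), and of −1.13 in the 4 libraries. Epithelial markers summed to between 15480 and 27800 CPM in each library. The sums were far lower for stromal (14.1 to 337 CPM), endothelial (8.32 to 12 CPM), T cell (7.21 to 14.9 CPM) and B and plasma cell markers (19.5 to 373 CPM). Mast cell markers summed to 33.3 to 81.0 CPM and macrophage and monocyte markers to 110 to 466 CPM. Neutrophil markers summed to 198 to 2363 CPM, with the highest sum in Nsd2Vil-KO replicate 2. The marker of highest mean CPM was Lgals4 for epithelium, Cd24a for tuft cells, Col3a1 for stroma, Lyve1 for endothelium, Cd14 for macrophages and monocytes, Ly6g for neutrophils, Kit for mast cells, Cd8a for T cells and Igha for B and plasma cells. In bulk RNA, fewer cells of a type and less RNA per cell cannot be told apart.

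Ptges (ENSMUSG00000050737, chromosome 2, 30889471 to 30929863, minus strand) encodes the inducible microsomal PGE2 synthase that acts after cyclooxygenase 2. It had 11, 5.67 and 4.28 CPM in Nsd2f/f replicates 1, 2 and 3. In Nsd2Vil-KO replicates 1, 2 and 3 it had 8.0, 43.9 and 9.45 CPM. One library, Nsd2Vil-KO replicate 2, was high with 791 counts, and the other 5 overlapped, with Nsd2f/f replicate 1 above both remaining Nsd2Vil-KO libraries. The means were 6.98 ± 3.55 CPM (SD, n = 3) in Nsd2f/f and 20.4 ± 20.3 CPM (SD, n = 3) in Nsd2Vil-KO mice, a log2FC of 1.53 with an SE of 0.72. Without Nsd2Vil-KO replicate 2 the log2FC was 0.31, and in the 4 libraries it was 0.06 (SE 0.33). The higher value of Ptges thus came from 1 of the 3 Nsd2Vil-KO libraries.

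In that library the summed neutrophil markers were also highest. All 8 had more than 3 counts there, and they summed to 2363 CPM against 207 to 902 CPM in Nsd2f/f and 293 and 198 CPM in the other Nsd2Vil-KO libraries. The sum was mostly Ly6g (1355 CPM), S100a8 (574 CPM) and S100a9 (405 CPM), and of the 8 only these and Ngp were highest there. The other 4 were lower than in Nsd2f/f replicate 1: Cxcr2 (5.10 against 12.5 CPM), Mmp8 (2.50 against 12.7 CPM), Retnlg (13.0 against 48.7 CPM) and Csf3r, the neutrophil growth factor receptor (0.666 against 31.0 CPM). Ly6g also had 197 CPM in Nsd2f/f replicate 3, where S100a8 had 3.07 CPM and Cxcr2 had 0 counts. The part of neutrophils in the value of Ptges was not tested.

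The promoters of Ptges, Ptgs2 and Hpgd are shown because these genes stand for induced synthesis and for breakdown, and because they were high in 3 different libraries. Each line holds the 250 bases before the RefSeq start of the gene on GRCm38.p6, read 5′ to 3′ on the strand of the gene, with GC boxes (GGGCGG on either strand) in capitals. They lie at chr2:30903298-30903547 (minus), chr1:150099781-150100030 (plus) and chr8:56294302-56294551 (plus). The RefSeq start of Ptges lies inside the longer gene of GENCODE given above.
Ptges: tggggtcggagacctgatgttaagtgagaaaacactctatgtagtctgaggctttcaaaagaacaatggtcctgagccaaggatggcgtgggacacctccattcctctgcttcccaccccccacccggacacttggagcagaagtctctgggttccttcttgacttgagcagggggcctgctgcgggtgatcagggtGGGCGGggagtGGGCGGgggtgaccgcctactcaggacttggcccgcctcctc
Ptgs2: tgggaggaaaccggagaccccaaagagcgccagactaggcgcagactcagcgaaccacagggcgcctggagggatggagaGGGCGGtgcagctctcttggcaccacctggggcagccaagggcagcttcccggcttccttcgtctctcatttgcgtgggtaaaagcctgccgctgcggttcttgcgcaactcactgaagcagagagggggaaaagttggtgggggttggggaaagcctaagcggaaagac
Hpgd: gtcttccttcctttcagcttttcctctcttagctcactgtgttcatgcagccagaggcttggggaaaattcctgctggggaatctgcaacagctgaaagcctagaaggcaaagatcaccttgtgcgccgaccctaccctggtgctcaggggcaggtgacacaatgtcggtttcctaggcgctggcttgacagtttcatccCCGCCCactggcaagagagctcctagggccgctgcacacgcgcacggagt
The Ptges window held 2 GC boxes, the first at −53, the Ptgs2 window 1 at −170 and the Hpgd window 1 at −50. At least 1 GC box was found in 32.7% of 32851 promoter windows of the same length. None of the 3 held, on either strand, a TATA box (TATAAA, present in 12.4% of all windows), the core of a CRE (TGACGT, 6.47%), an E-box (CACGTG, 6.02%), the core of an antioxidant element (TGACNNNGC, 10.2%), a CCAAT box (33.8%) or an NF-kB site (7.25%). The cores of the CRE and of the antioxidant element start with the same letters and were counted separately. Only the 250 bases before each annotated start were searched. Motifs at or after that start, or further upstream, would be missed, so their absence from a promoter cannot be read from these windows. Their GC contents were 59.6%, 61.6% and 56.8%, against a median of 52.4% over all windows.

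**Figure D1:**
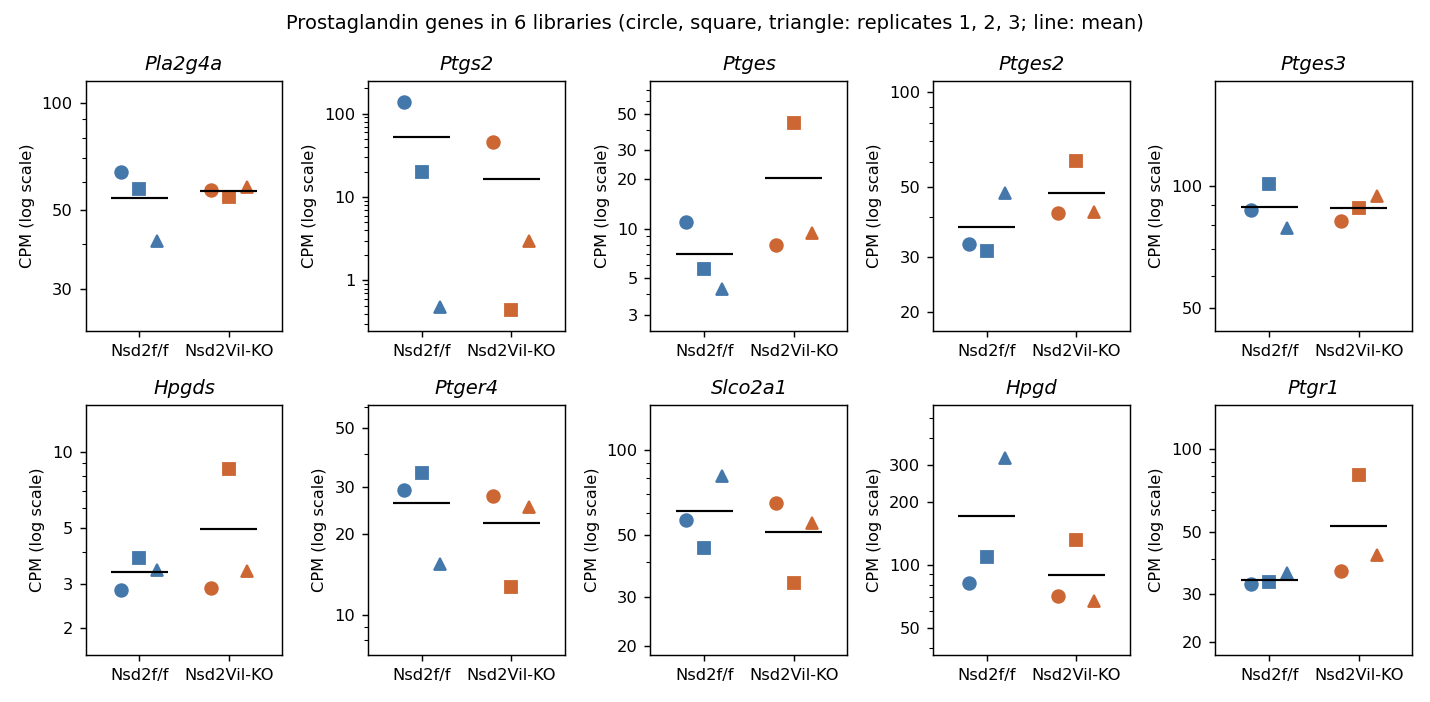
CPM of the 10 prostaglandin genes on a log axis in 3 Nsd2f/f (blue) and 3 Nsd2Vil-KO (orange) libraries, with circles, squares and triangles for replicates 1, 2 and 3 and a line at the mean of each genotype. Ptges, Ptgr1 and Hpgds were highest in Nsd2Vil-KO replicate 2, Hpgd was highest in Nsd2f/f replicate 3, and Ptgs2 spread from 0.444 to 137 CPM.

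The first step of the pathway differed little. Pla2g4a (ENSMUSG00000056220, chromosome 1, 149829618 to 149961290), the cytosolic phospholipase A2 that releases arachidonic acid, had 64.1, 57.1 and 41.0 CPM in Nsd2f/f replicates 1, 2 and 3 and 56.8, 54.5 and 58.1 CPM in Nsd2Vil-KO replicates 1, 2 and 3. All 3 Nsd2Vil-KO libraries lay inside the Nsd2f/f range. The log2FC was 0.06 (SE 0.20), with 2 SE reaching from −0.34 to 0.46, and was −0.07 in the 4 libraries.

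Ptgs2 (ENSMUSG00000032487, chromosome 1, 150100031 to 150108227) encodes cyclooxygenase 2, the inducible enzyme that feeds Ptges. It had 137, 20.2 and 0.485 CPM in Nsd2f/f replicates 1, 2 and 3. It had 45.9, 0.444 and 2.96 CPM in Nsd2Vil-KO replicates 1, 2 and 3. Each genotype thus held libraries with many reads and libraries with almost none (6 counts in Nsd2f/f replicate 3, 8 in Nsd2Vil-KO replicate 2), and Nsd2Vil-KO replicate 2, the library with the most Ptges, had the lowest CPM. The highest library was 308-fold above the lowest. The within-genotype SD of 3.62 on the log2 scale was at the 99.9th percentile of the genes tested, where Ptges had 1.07 (89.4th percentile) and Ptges3 0.15 (8.4th percentile). The log2FC of −1.67 had an SE of 1.78, was −1.66 (SE 1.85) in the 4 libraries and turned to 0.66 without Nsd2f/f replicate 1.

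Ptgs2 shared its order with some stromal and leukocyte transcripts. The order of the 6 libraries by Ptgs2, from Nsd2f/f replicate 1 to Nsd2Vil-KO replicate 2, was also that of Col3a1, Col1a2 and Lum of the stromal list and of Csf3r of the neutrophil list, and in all of 85 others of the 14650 genes tested (0.58%). Col3a1, a fibrillar collagen, had 139, 24.1 and 1.45 CPM in Nsd2f/f replicates 1, 2 and 3 and 31.4, 0.666 and 5.93 CPM in Nsd2Vil-KO replicates 1, 2 and 3. The 10 stromal markers, of which between 7 and 10 had more than 3 counts in a library, summed to 33.2 to 337 CPM in Nsd2f/f and 14.1 to 101 CPM in Nsd2Vil-KO mice. The sum of the 10 macrophage and monocyte markers was highest in Nsd2f/f replicate 1, too (466 CPM), and lowest in Nsd2f/f replicate 3 (110 CPM), where Adgre1 was at 0. Other markers did not follow Ptgs2: the stromal Pdgfrb was highest in Nsd2f/f replicate 3 (18.9 CPM), and the neutrophil sum was highest in Nsd2Vil-KO replicate 2, where Ptgs2 was lowest. In the summed lists, 4 of 6 libraries held the same place as for Ptgs2 for stroma. The number was 3 for T cells, 2 each for neutrophils and mast cells, and 1 each for endothelium and for macrophages and monocytes. It was 0 each for epithelium, tuft cells and B and plasma cells. The macrophage and monocyte sum was largely Cd14, at 99.1 CPM in Nsd2f/f replicate 3 and 245 CPM in Nsd2Vil-KO replicate 3. Lyz2, Adgre1 and Ly6c2 had the order of Ptgs2 except that Nsd2f/f replicate 3 was below Nsd2Vil-KO replicate 2. For Csf1r, C1qa, C1qb and C1qc, Nsd2f/f replicate 2 was also above Nsd2Vil-KO replicate 1. For Cd68 and Itgam, Nsd2Vil-KO replicate 2 was above Nsd2Vil-KO replicate 3. The ratio of Ptgs2 to Col3a1 in CPM lay between 0.333 and 0.985 in Nsd2f/f and between 0.5 and 1.46 in Nsd2Vil-KO libraries, a narrower range than that of Ptgs2 itself. The part of these cells in the values of Ptgs2 was not tested.

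**Figure D2:**
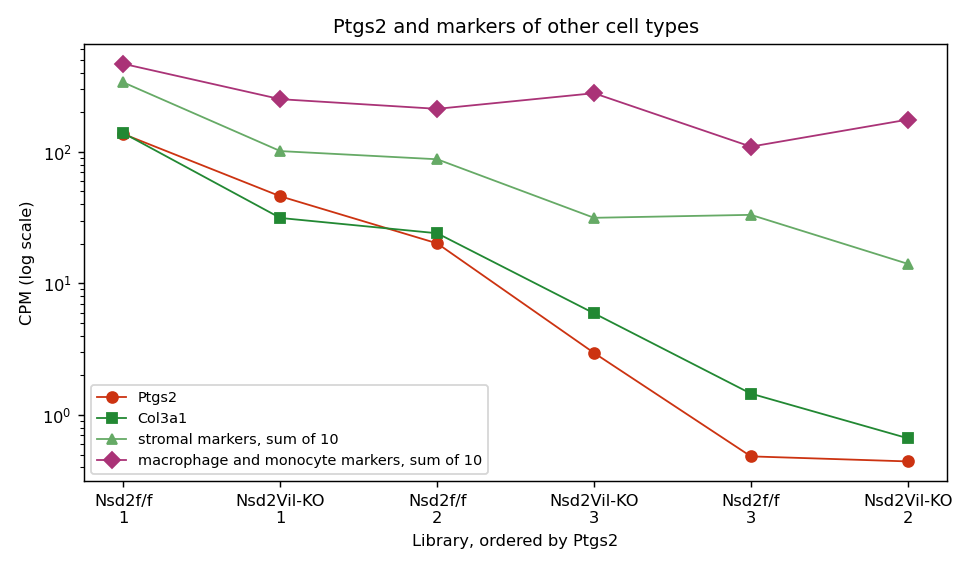
CPM on a log axis of Ptgs2, of Col3a1 and of the summed stromal and macrophage markers, with the 6 libraries ordered along the x axis by Ptgs2. Ptgs2 and Col3a1 have the same order, from 137 and 139 CPM in Nsd2f/f replicate 1 to 0.444 and 0.666 CPM in Nsd2Vil-KO replicate 2.

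Ptgs1, the constitutive cyclooxygenase 1, was scarce. It had 2.28, 0.827 and 1.05 CPM in Nsd2f/f replicates 1, 2 and 3 and 0.878, 1.05 and 0.715 CPM in Nsd2Vil-KO replicates 1, 2 and 3, from 13 to 46 counts. The log2FC was −0.68 (SE 0.53, edgeR adjusted p = 0.992), −0.99 in the 4 libraries and −0.08 without Nsd2f/f replicate 1, the library with 46 counts.

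The other PGE2 synthases were less uneven between libraries than Ptges. Ptges2 (ENSMUSG00000026820, chromosome 2, 32395896 to 32405772), a membrane-associated synthase regarded as constitutive, had 33.0, 31.3 and 47.8 CPM in Nsd2f/f replicates 1, 2 and 3 and 41.2, 60.3 and 41.5 CPM in Nsd2Vil-KO replicates 1, 2 and 3. The Nsd2Vil-KO libraries were above Nsd2f/f replicates 1 and 2, but Nsd2f/f replicate 3 exceeded 2 of them. Its log2FC was 0.35 (SE 0.25) in 6 libraries and 0.37 (SE 0.12) in 4, and leaving out single libraries kept it between 0.15 and 0.57. In the 4 libraries Ptges itself was at 0.06.

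Ptges3 (ENSMUSG00000071072, chromosome 10, 128058954 to 128077272) encodes the cytosolic synthase, also known as the HSP90 co-chaperone p23. It had 87.2, 101 and 78.9 CPM in Nsd2f/f replicates 1, 2 and 3 and 81.8, 88.3 and 94.6 CPM in Nsd2Vil-KO replicates 1, 2 and 3, and was the steadiest of the 10 genes. The log2FC was −0.01 (SE 0.17), with 2 SE reaching from −0.35 to 0.33, was −0.08 in the 4 libraries and changed sign under library size scaling (0.02). Its processed copy Ptges3-ps had 19.8 to 35.3 CPM in a library and could share reads with it.

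Hpgds (ENSMUSG00000029919, chromosome 6, 65117293 to 65144908), the haematopoietic prostaglandin D2 synthase, known from mast cells and tuft cells, had 2.82, 3.78 and 3.39 CPM in Nsd2f/f replicates 1, 2 and 3 and 2.88, 8.54 and 3.37 CPM in Nsd2Vil-KO replicates 1, 2 and 3. As for Ptges, 1 library was high, Nsd2Vil-KO replicate 2 with 154 counts, and the other 5 lay close together. The log2FC of 0.56 (SE 0.50) was −0.09 without that library and −0.06 in the 4 libraries. The 10 tuft cell markers summed to 386 to 472 CPM in Nsd2f/f and 301 to 505 CPM in Nsd2Vil-KO mice. The sum was highest in the same library, where Cd24a alone gave 461 CPM. The other tuft cell markers were mixed there. Avil (30.4 CPM), Sh2d6 (7.10 CPM) and Gfi1b (4 counts) had their highest values. Dclk1, Trpm5 and Pou2f3 were below both other Nsd2Vil-KO libraries but above Nsd2f/f replicate 2. The 9 mast cell markers had their lowest sum there (33.3 CPM against 62.2 to 81.0 CPM in Nsd2f/f mice). Kit had 7.77 CPM there and 29.0 to 42.6 CPM elsewhere. Mcpt1 (15.3 CPM) and Mcpt2 (7.93 CPM) were below every Nsd2f/f library but not below Nsd2Vil-KO replicate 1 (15.2 and 7.56 CPM). The part of these cells was not tested.

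Slco2a1 (ENSMUSG00000032548, chromosome 9, 102988712 to 103096002) encodes the transporter that takes prostaglandins up into cells. It had 56.6, 44.7 and 80.9 CPM in Nsd2f/f replicates 1, 2 and 3 and 64.9, 33.5 and 55.0 CPM in Nsd2Vil-KO replicates 1, 2 and 3. The genotypes overlapped, with the highest value in Nsd2f/f replicate 3 and the lowest in Nsd2Vil-KO replicate 2. The log2FC was −0.25 (SE 0.31) in 6 libraries and 0.25 (SE 0.16) in 4, so that its sign rested on the 2 libraries that stood apart.

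Hpgd (ENSMUSG00000031613, chromosome 8, 56294585 to 56321043) encodes 15-hydroxyprostaglandin dehydrogenase, the enzyme that inactivates PGE2. It had 82.3, 109 and 322 CPM in Nsd2f/f replicates 1, 2 and 3. It had 71.1, 131 and 67.1 CPM in Nsd2Vil-KO replicates 1, 2 and 3. Nsd2f/f replicate 3, the library with the high mitochondrial share, was far above the rest, and the 2 lowest values were both from Nsd2Vil-KO mice. The means were 171 ± 131 CPM (SD, n = 3) in Nsd2f/f and 89.8 ± 36.0 CPM (SD, n = 3) in Nsd2Vil-KO mice, a log2FC of −0.93 with an SE of 0.54. Without Nsd2f/f replicate 3 it was −0.09, and in the 4 libraries −0.46 (SE 0.15). The 2 libraries that stood apart had the 2 highest values of Hpgd, and between them the Nsd2Vil-KO library was the lower one.

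Ptgr1 (ENSMUSG00000028378, chromosome 4, 58965439 to 58987119) encodes prostaglandin reductase 1, which acts on products of the dehydrogenase and also on leukotriene B4. It had 32.4, 33.0 and 35.6 CPM in Nsd2f/f replicates 1, 2 and 3 and 36.1, 80.6 and 41.4 CPM in Nsd2Vil-KO replicates 1, 2 and 3. Every Nsd2Vil-KO library was above every Nsd2f/f library, the nearest pair being 35.6 and 36.1 CPM, and Nsd2Vil-KO replicate 2 was the highest. The log2FC was 0.65 (SE 0.31), fell to 0.21 without Nsd2Vil-KO replicate 2 and was 0.26 (SE 0.13) in the 4 libraries.

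Ptger4 (ENSMUSG00000039942, chromosome 15, 5206661 to 5244187) encodes EP4, a PGE2 receptor that raises cyclic AMP. It had 29.3, 34.0 and 15.4 CPM in Nsd2f/f replicates 1, 2 and 3 and 27.9, 12.7 and 25.3 CPM in Nsd2Vil-KO replicates 1, 2 and 3. In each genotype the library that stood apart was the lowest. Its log2FC was −0.26 (SE 0.39) in 6 libraries and −0.24 (SE 0.14) in 4, and leaving out single libraries moved it between −0.52 and 0.02, the last without Nsd2Vil-KO replicate 2. Its exons share 1015 bases with the pseudogene Gm15937 and 82 bases with Ttc33 on the opposite strand, so their reads cannot be told apart if counting ignored strand.

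Over the pathway, the criterion of the study, a fold change above 1.2 with an unadjusted p below 0.05, was met by 0 of the 10 genes, beside 3.29% of all genes tested (1.65% higher and 1.65% lower). For 1 of the 10, Ptgr1, there was no overlap between the genotypes, and it was higher in Nsd2Vil-KO mice, beside 5.21% of all genes tested for this direction and 9.9% for both. With edgeR 0 of 14650 genes had an adjusted p below 0.05 and 482 an unadjusted p below 0.05. Of the 10 genes, 5 had a positive and 5 a negative log2FC, with a median of 0.02 beside 0.0012 over all genes, and the median size without sign was 0.46 beside 0.23. The highest value was in 1 of the 2 libraries that stood apart for 6 of the 10 genes, and the lowest value for 6 of the 10, where these shares were 52.4% and 54.7% over all genes tested.

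**Figure D3:**
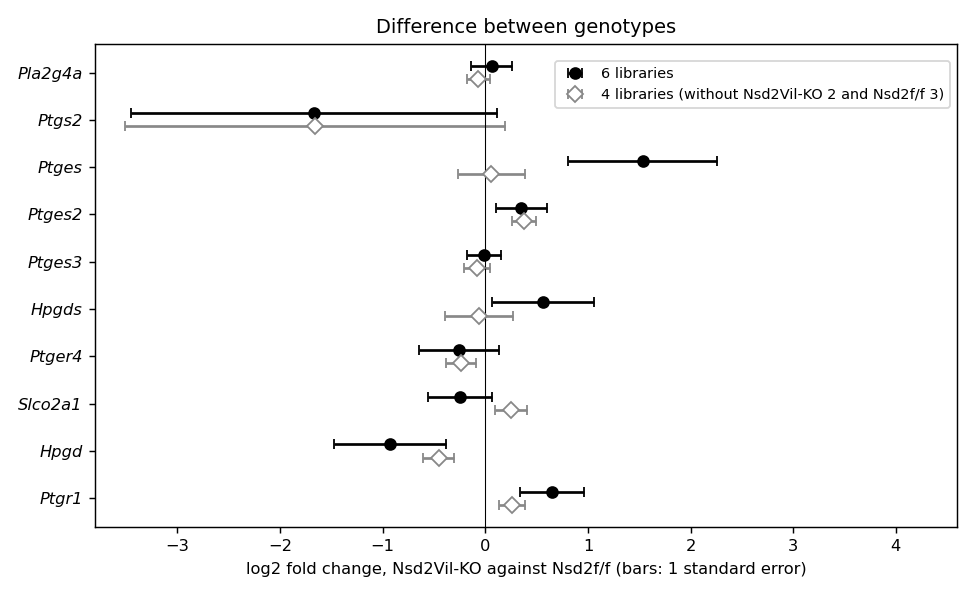
log2 fold change (log2FC) of each gene, Nsd2Vil-KO against Nsd2f/f, with bars of 1 standard error, from all 6 libraries (filled) and from the 4 without Nsd2Vil-KO replicate 2 and Nsd2f/f replicate 3 (open). Ptges moved from 1.53 to 0.06, Hpgds from 0.56 to −0.06 and Slco2a1 from −0.25 to 0.25, while Ptges2 stayed at 0.35 and 0.37.

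Scaled to exon length, Hpgd was the most abundant of the 10 transcripts, with a median of 56.8 CPM per kilobase (39.9 to 191). Ptges3 followed with a median of 39.6 and Ptgr1 with 15.6 CPM per kilobase. Hpgd was above Ptges3 in 5 of 6 libraries, and Ptges3 above Ptgr1 in 6 of 6. Pla2g4a (median 8.91 CPM per kilobase) was above Ptges2 (8.17) in 4 of 6 libraries, Slco2a1 (4.12) above Ptger4 (4.0) in 4, Ptger4 above Ptgs2 (2.52) in 4 and Ptgs2 above Ptges (2.22) in 3, so these neighbours did not differ beyond their spread. Ptgr1 was above Pla2g4a, Ptges2 above Slco2a1 and Ptges above Hpgds in 6 of 6 libraries, and Hpgds had the lowest median, 0.526 CPM per kilobase. The breakdown enzymes Hpgd and Ptgr1 were thus above the inducible synthesis enzymes Ptgs2 and Ptges in median level.

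The balance of synthesis and breakdown was described by ratios within a library, which do not depend on library size. The log2 ratio of Ptges to Hpgd counts was −2.90, −4.25 and −6.22 in Nsd2f/f replicates 1, 2 and 3 and −3.15, −1.58 and −2.82 in Nsd2Vil-KO replicates 1, 2 and 3. Hpgd had more reads than Ptges in every library, and Nsd2f/f replicate 1 lay within the Nsd2Vil-KO range. The means were −4.46 ± 1.67 (SD, n = 3) and −2.52 ± 0.83 (SD, n = 3), a difference of 1.94 that stayed between 1.06 and 2.72 when single libraries were left out and was 0.59 in the 4 libraries. The extreme ratios were those of Nsd2Vil-KO replicate 2, where Ptges was highest, and of Nsd2f/f replicate 3, where Hpgd was highest, and no test is given because both genes were chosen on this contrast.

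The log2 ratio of Ptgs2 to Hpgd counts was 0.73, −2.43 and −9.26 in Nsd2f/f replicates 1, 2 and 3 and −0.63, −8.12 and −4.49 in Nsd2Vil-KO replicates 1, 2 and 3. The difference of the means was −0.76, opposite in sign to that of Ptges to Hpgd. It turned to 1.09 without Nsd2Vil-KO replicate 2 and to 1.43 without Nsd2f/f replicate 1, and was −3.56 without Nsd2f/f replicate 3, −2.65 without Nsd2Vil-KO replicate 1, −0.72 without Nsd2Vil-KO replicate 3, −0.15 without Nsd2f/f replicate 2 and −1.71 in the 4 libraries.

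**Figure D4:**
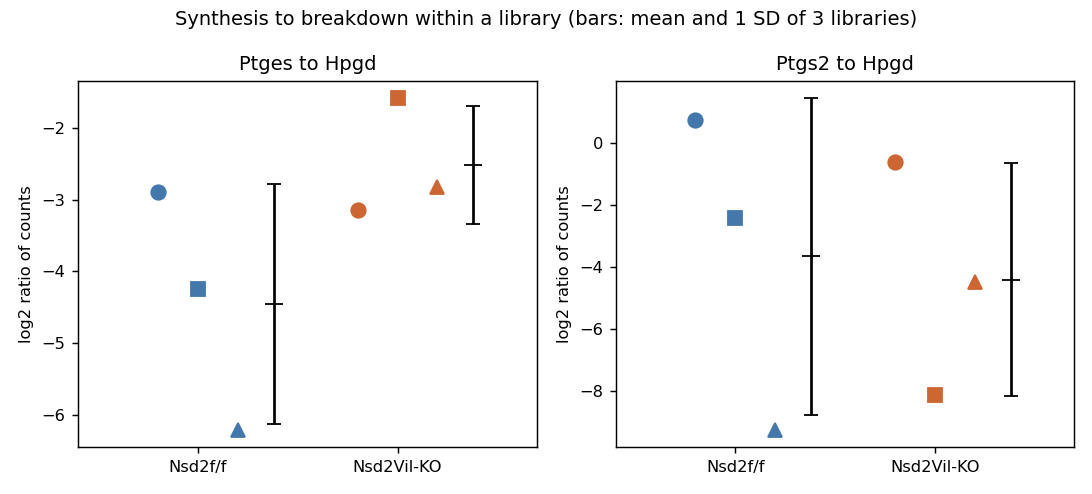
log2 ratio of counts within each library for Ptges to Hpgd (left) and Ptgs2 to Hpgd (right), by genotype, with circles, squares and triangles for replicates 1, 2 and 3 and bars for the mean and 1 SD of 3 libraries. The Ptges to Hpgd ratio ran from −6.22 to −1.58, and the Ptgs2 to Hpgd ratio from −9.26 to 0.73.

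The members were set beside Ptges across the 6 libraries, a description only, since the points share genotype and the 2 libraries that stood apart. On log2 CPM the correlation with Ptges was 0.89 for Ptgr1, 0.80 for Hpgds, 0.58 for Ptges2, 0.35 for Pla2g4a and 0.08 for Ptges3. It was −0.23 for Hpgd, −0.25 for Ptgs2, −0.50 for Ptger4 and −0.79 for Slco2a1. For Ptges and Ptgs2, the inducible pair, Nsd2Vil-KO replicate 2 was the exception, with the highest Ptges and the lowest Ptgs2, whereas among the other 5 libraries both genes were highest in Nsd2f/f replicate 1 and lowest in Nsd2f/f replicate 3. The members with the highest correlations, Ptgr1 and Hpgds, shared with Ptges the highest value in Nsd2Vil-KO replicate 2, as did Ptges2. Both Ptgr1 and Hpgds were lowest in Nsd2f/f replicate 1, which had the most Ptges of the other 5 libraries. Their correlations with Ptges thus rested on Nsd2Vil-KO replicate 2. Hpgd and Pla2g4a, a pair picked after the values were seen, had a correlation of −0.91 over 6 libraries. In Nsd2f/f replicate 3 Hpgd was highest (322 CPM) and Pla2g4a lowest (41.0 CPM), while Pla2g4a had 54.5 to 64.1 CPM elsewhere. Other pairs had larger correlations, −0.94 for Ptges2 and Ptger4 and 0.94 for Ptgr1 and Hpgds.

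Of 13341 genes averaging 1 CPM or more, those most like Ptges over the 6 libraries were Arhgef28 (r = 0.998), Cacfd1, Rnh1, Rps2-ps6 and Pik3ip1 (r = 0.994). Arhgef28 had 44.9, 36.0 and 32.2 CPM in Nsd2f/f replicates 1, 2 and 3 and 39.4, 70.3 and 40.9 CPM in Nsd2Vil-KO replicates 1, 2 and 3. The phospholipase Pla2g12a, singled out after its values were seen, ranked 7 in likeness to Ptges (r = 0.992). The genes most like Hpgd were Bad (r = 0.999), an apoptosis regulator, Uqcrh, a subunit of respiratory complex III, Rab9, Pttg1ip and Calml4 (r = 0.996 for the last), and each was highest in Nsd2f/f replicate 3. Those most like Ptgs2, a list added after the values were seen, were Lgals1 (r = 0.998), Cxcl10, Htra1, Col5a1 and Csf3r (r = 0.994 for the last), which include an interferon-induced chemokine, a collagen and a granulocyte receptor.

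Another 52 genes of eicosanoid metabolism were listed from textbook knowledge of the pathway, and 30 of them passed the filter. Of these 30, 1 met the criterion, Abcc4, beside 3.29% of all genes tested, and 10 had a positive and 20 a negative log2FC, with a median of −0.16. Abcc4 encodes MRP4, a pump that exports PGE2. It had 19.3, 24.6 and 16.2 CPM in Nsd2f/f replicates 1, 2 and 3 and 28.6, 45.7 and 28.5 CPM in Nsd2Vil-KO replicates 1, 2 and 3. All Nsd2Vil-KO libraries were above all Nsd2f/f libraries, and the log2FC was 0.77 (SE 0.27, edgeR adjusted p = 0.992). It was 0.51 without Nsd2Vil-KO replicate 2 and 0.40 in the 4 libraries. The criterion was not met without Nsd2Vil-KO replicate 2, Nsd2f/f replicate 1 or Nsd2f/f replicate 3.

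Of 17 listed genes of arachidonic acid release, 12 were tested, 0 met the criterion, and 6 had positive and 6 negative values with a median of 0.04. Pla2g2a, of the secreted phospholipase A2 family, had the highest mean CPM in this group, and whether it yields active enzyme here was not measured. It had 139, 196 and 29.4 CPM in Nsd2f/f replicates 1, 2 and 3 and 89.8, 285 and 118 CPM in Nsd2Vil-KO replicates 1, 2 and 3. Its log2FC was 0.43 (SE 0.69, edgeR adjusted p = 0.994) in 6 libraries and −0.69 in the 4. Pla2g12a had 12.5, 8.10 and 6.14 CPM in Nsd2f/f replicates 1, 2 and 3 and 10.2, 44.0 and 9.86 CPM in Nsd2Vil-KO replicates 1, 2 and 3, so like Ptges it was high in 1 library, and its log2FC was 1.25 (SE 0.64) with that library and 0.16 without it (−0.04 in the 4 libraries).

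Of 8 further cyclooxygenase and terminal synthase genes, 6 were tested, 0 met the criterion, and 1 had a positive and 5 a negative value with a median of −0.41. Ptgds, the lipocalin-type prostaglandin D2 synthase, had 0 counts in each library. The highest mean CPM was that of Cbr1, a carbonyl reductase that can convert PGE2, at 136, 165 and 605 CPM in Nsd2f/f replicates 1, 2 and 3 and 170, 372 and 182 CPM in Nsd2Vil-KO replicates 1, 2 and 3. As for Hpgd, Nsd2f/f replicate 3 was far above the rest. Its log2FC was −0.32 (SE 0.61, edgeR adjusted p = 0.996) and turned to 0.68 without that library and to 0.23 in the 4 libraries.

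All 5 genes of export and breakdown were tested, of which Abcc4 met the criterion, and 3 had positive and 2 negative values with a median of 0.09. Ptgr3, listed under its older symbol Zadh2, had the highest mean CPM, with 64.2, 67.0 and 98.6 CPM in Nsd2f/f replicates 1, 2 and 3 and 67.4, 105 and 71.6 CPM in Nsd2Vil-KO replicates 1, 2 and 3. It was high in both libraries that stood apart. The log2FC was 0.09 (SE 0.26, edgeR adjusted p = 0.996), as it was in the 4 libraries (SE 0.11).

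Of 8 further prostanoid receptors only Ptger3, the EP3 receptor that lowers cyclic AMP, passed the filter, and the other 7 had at most 8 counts in any library. Ptger3 had 6.89, 8.92 and 11.96 CPM in Nsd2f/f replicates 1, 2 and 3 and 4.39, 0.222 and 6.64 CPM in Nsd2Vil-KO replicates 1, 2 and 3. The genotypes did not overlap, Nsd2Vil-KO replicate 2 being close to 0 with 4 counts. The log2FC was −1.29 (SE 0.83, edgeR adjusted p = 0.992), and −0.51 in the 4 libraries, so the criterion was not met. Lower values without overlap were found for 4.7% of all genes tested. The EP receptors Ptger1 and Ptger2 were hardly detected at this depth.

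Of 14 genes of the lipoxygenase and epoxide branches, 6 were tested and 0 met the criterion. All 6 had a negative value, with a median of −0.79 and a range from −1.65 to −0.11. The sign rested on single libraries for some of them. Alox5 was at 0.39 without Nsd2f/f replicate 1, Alox15 at 0.27 without Nsd2f/f replicate 2 and Ephx2 at 0.02 without Nsd2f/f replicate 3. Lta4h, Alox5ap and Ltb4r1 stayed negative when single libraries were left out. Lta4h, which makes leukotriene B4 and had the highest mean CPM, had 113, 135 and 140 CPM in Nsd2f/f replicates 1, 2 and 3 and 121, 115 and 122 CPM in Nsd2Vil-KO replicates 1, 2 and 3, a log2FC of −0.11 (SE 0.17, edgeR adjusted p = 0.993) and of −0.01 in the 4 libraries. The most negative value, −1.65 (SE 0.85), was that of Alox5ap, the 5-lipoxygenase activating protein of leukocytes, singled out after its values were seen. Alox5ap is also on the tuft cell list used above. It had 10.9, 2.66 and 0.970 CPM in Nsd2f/f replicates 1, 2 and 3 and 1.8, 2.11 and 0.817 CPM in Nsd2Vil-KO replicates 1, 2 and 3, and without Nsd2f/f replicate 1, the library with the highest macrophage and stromal sums, it was −0.24, whereas it was −2.37 (SE 0.89) in the 4 libraries.

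**Figure D5:**
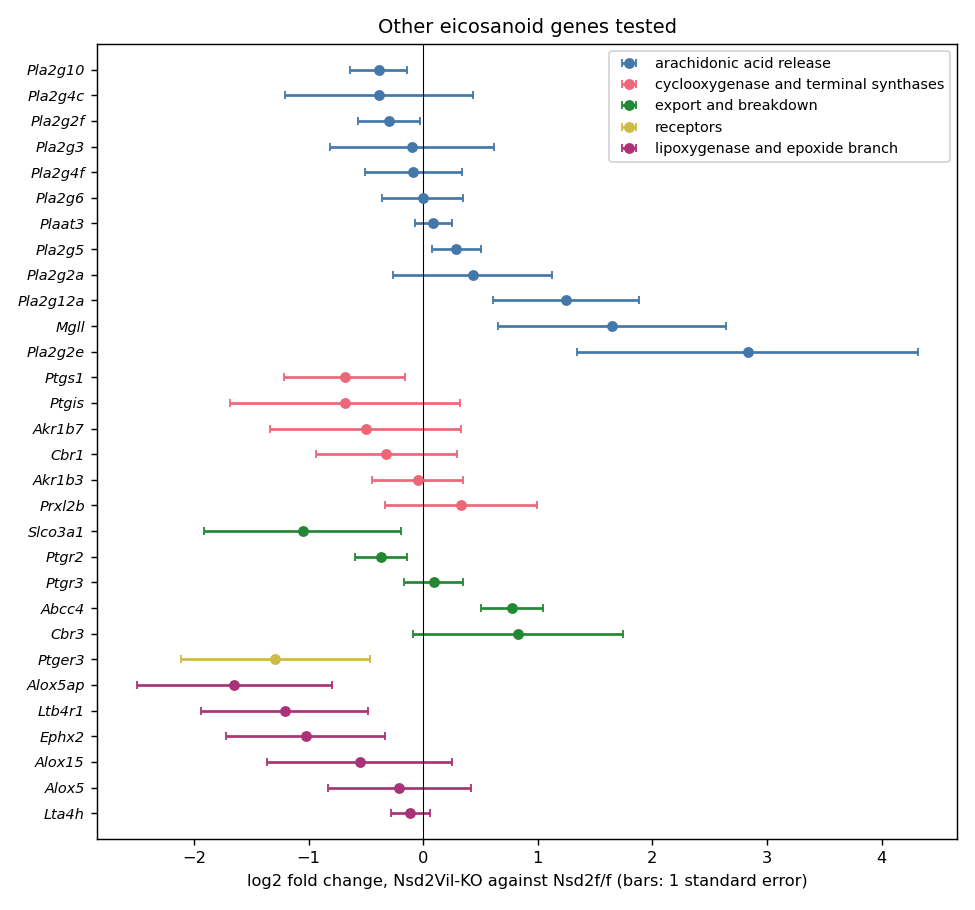
log2FC, Nsd2Vil-KO against Nsd2f/f, of the 30 further eicosanoid genes tested, with bars of 1 standard error and colours for the 5 branches of the pathway. Abcc4, at 0.77, is the gene that met the criterion, and the 6 lipoxygenase and epoxide genes lie between −1.65 and −0.11.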

How the data were processed

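Per the labels, total RNA of colon IECs was sequenced. The authors deposited 1 table of raw read counts, whole numbers for each Ensembl gene, for the 6 libraries, without normalisation or filter, and all its columns were used. According to the methods, reads were trimmed with Cutadapt and Trimmomatic and aligned to GRCm38 with HISAT2, and libraries were directional after polyA selection, whereas the labels name another kit. Which program counted the reads, and whether by strand, is not given in the sources used here, so overlapping genes and gene copies can share reads.

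Libraries were grouped by their labels, which read NSD2-FF-VILCRE for Nsd2Vil-KO and WT for Nsd2f/f. That the WT libraries are Nsd2f/f was taken from the text of the study. The test used edgeR 4.0.16 in R 4.3.3, with TMM factors, filterByExpr by genotype, glmQLFit with robust estimation, no covariates, and Benjamini-Hochberg adjustment over the 14650 genes tested. The standard error of a log2 fold change was its size divided by the square root of the quasi-likelihood F. The script was tested on simulated data. CPM used TMM factors, likeness used log2 CPM with a prior count of 2, and log2 ratios used counts plus 0.5. Coordinates and exon lengths came from GENCODE vM21 (99.5% of listed genes found), promoters from RefSeq on GRCm38.p6, and figures were drawn with matplotlib 3.10.9.

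The 10 genes, the pathway and marker lists and the tests were chosen with earlier results of these data known. Genes named are the 10 members, Nsd2, Ptgs1 and each pathway gene that met the criterion. Also named are the gene of highest mean CPM in each pathway and marker list and the 5 genes most like Ptges and Hpgd. Other genes were picked after their values were seen, as said there, or to show how the members of a list differed. The alternatives were other scaling (RLE, library size), filters, DESeq2 1.42.0, limma-voom from limma 3.58.1, a replicate block, no mitochondrial genes, other thresholds and pseudocounts, and each library left out, and 2 were chosen after seeing the data, the 4 libraries and the presence of Xist as a covariate.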

Additional observations from a re-analysis of the deposited data

How the results depend on the processing

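Leaving out single libraries, the count of genes that met the criterion was between 323 and 769, that of the 10 prostaglandin genes between 0 and 2, that of the other pathway genes between 0 and 4, the log2 fold change of Nsd2 between −1.42 and −0.87, that of Ptges between 0.31 and 2.03, that of Cbr1 between −0.78 and 0.68, that of Pla2g2a between −0.23 and 0.96 and that of Ptgr3 between −0.14 and 0.32. Between 14972 and 15222 genes were tested when a single library was left out. The range of the Ptges to Hpgd ratio is given above. With no filter, 861 of 26360 genes tested met the criterion. Of 14650 genes, 303 met it with a replicate block, 279 with a fold change limit of 2 and 0 with an adjusted p below 0.05. It was met by 382 of 14650 genes with library size scaling, 1440 of 14650 with limma-voom and 633 of 14625 with DESeq2. With Xist as a covariate 1145 of 14650 genes met it, and in the 4 libraries 1646 of 15030, or 11%. Of the 10 genes, 1 met it with library size scaling (Ptgr1), 1 with DESeq2 (Ptges), 1 with limma-voom (Ptges2), 2 in the 4 libraries (Hpgd and Ptges2) and 3 with Xist as a covariate (Hpgd, Ptges2 and Ptgr1). Of the other pathway genes, 2 met it with DESeq2, 3 with limma-voom, 5 in the 4 libraries and 4 with Xist as a covariate. The log2 fold change of Nsd2 was −1.12 with library size scaling, −1.04 without Nsd2f/f replicate 1 and −0.97 without Nsd2f/f replicate 2, and in these settings it no longer met the criterion. That of Ptges was 0.31 with limma-voom, which gives less weight to libraries that vary, and 0.057 in the 4 libraries, where the log2 ratio of Ptges to Hpgd differed by 0.59. With limma-voom and in the 4 libraries, Cbr1 turned to 0.13 and 0.23 and Pla2g2a to −0.50 and −0.69. The cause was not tested.

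The replicate numbers did not pair the libraries: deviations of same-numbered libraries correlated at 0.322, −0.35 and −0.108 for numbers 1, 2 and 3. With the replicate block, the log2 fold change of Ptges was 1.2, 0 of the 10 genes met the criterion, and Abcc4 still met it. The 4 libraries leave 2 against 2, and the spread between 2 libraries is a weak measure of error. Without untreated mice, what DSS did to these genes cannot be read from these libraries, and transcripts do not measure prostaglandins.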
